A study of Brassica napus with 74 samples.

Results

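The inner seed coat (ISC) of *Brassica napus* cv. Topas was compared between 2 early stages of seed development, the globular stage at 7 d after hand pollination (gISC) and the ovule at 0 d (ovISC). All 6 libraries that the labels place in these subregions were used, 3 gISC and 3 ovISC, of 74 libraries from 26 seed subregions in the series. The plants were of 1 cultivar grown under 1 regime, and the labels give no difference between the groups other than stage. Cells were cut from paraffin sections by laser microdissection (LMD), and each replicate was a pool of at least 100 sections from at least 12 plants with an RNA integrity number of at least 3. The labels and methods do not tie a replicate to a shared batch or day, and nothing says whether separate pools came from separate plants, so p-values cover the spread between these pools. Globular chalazal (CZSC) and outer (OSC) seed coat, with the same tissues of the ovule, served to ask whether a change differed between seed coat subregions.

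The ISC derives from the inner integument of the ovule, the maternal layers that line the embryo sac. After fertilization the seed coat grows around the expanding endosperm, supplies sugars to the filial tissues, and later loses most of its inner cells. Cell division, wall remodelling, sugar transport, and programmed cell death are therefore processes in which seed coat genes are commonly followed. Gene names were taken from the study's own gene list (89 genes) and functions from Gene Ontology (GO) terms that the study lists for 8,282 genes. Genes outside these sources are given by identifier only, in which A or C after Bna marks the An or Cn subgenome.

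The libraries held at least 3,747,926 to 9,796,883 reads in the gISC and at least 4,768,470 to 13,151,824 reads in the ovISC, as recovered from the steps between low TPM values. Within a group, log2(TPM + 1) of 2 libraries correlated with r of 0.91 to 0.94 in the gISC and 0.88 to 0.95 in the ovISC, and between the groups with r of 0.67 to 0.79 (across genes, which are not replicates). In ovISC replicate 3, 75,633 genes lay above 1 TPM, against 40,437 to 44,979 in the other 5 libraries. The gISC libraries had 43,032, 43,033, and 40,437 such genes and the ovISC libraries 44,979, 42,451, and 75,633, a difference that did not exceed the spread (exact two-sided permutation test, p = 0.3, n = 3 each, where 0.1 is the smallest p possible). Above 5 TPM lay 19,468, 22,203, and 19,450 genes in the gISC and 24,196, 25,046, and 25,941 in the ovISC. At that limit the groups did not overlap (exact two-sided permutation test, p = 0.1).

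The libraries differed in the summed TPM of 2 lists of genes high in neighbouring tissues, chosen in other libraries. Whether this RNA came from those tissues or from the ISC itself was not tested. OSC-high genes (133 genes, at least 20 TPM in every heart-stage OSC library and at most 2 TPM in every heart-stage ISC library) summed to 150.4, 1475, and 114 TPM in gISC replicates 1 to 3, against 1940, 926, and 769.7 TPM in ovISC replicates 1 to 3 and 11,300 and 8155 TPM in the gOSC. In the OSC of the ovule (ovOSC) they summed to less than in the gOSC, at 5061, 4231, and 3726 TPM. Endosperm-high genes (66 genes, at least 50 TPM in each globular peripheral endosperm library, gPEN, and at most 1 TPM in the ovOSC, ovCZSC, and gOSC) summed to 274, 26.9, and 191 TPM in the gISC, against 22.7, 3.70, and 66.9 TPM in the ovISC and 7808 and 9816 TPM in the gPEN. gISC replicate 2 therefore carried the most OSC-high RNA of the gISC and the least endosperm-high RNA, and 125 of the 133 OSC-high genes were above 1 TPM in it, against 55 in gISC replicate 1 and 30 in gISC replicate 3. Seed storage genes of the study's list (27 OLEO, SESA, and CRU genes, with *CRB*, given below, left out) summed to 7.01 to 15.2 TPM in the gISC and 3.41 to 44.3 TPM in the ovISC. The label was checked against the OSC alone by ISC-high genes (60 genes, the OSC-high rule turned round). These summed to 1413, 1285, and 1580 TPM in the gISC, against 278, 302, and 377.5 TPM in the ovISC and 30.6 and 25.5 TPM in the gOSC. They summed to 2114, 1034, and 886 TPM in the gCZSC. In the globular chalazal proliferating tissue (gCPT) the sums were 6024, 6018, and 6326 TPM, of which the highest gene alone had 3979 to 4225 TPM. At the ovule stage ISC-high genes summed to 240.7, 274.6, and 275.5 TPM in the ovCZSC and 135.7, 150.9, and 180.8 TPM in the ovOSC. The highest gene alone had 128, 196, and 162 TPM in ovISC replicates 1 to 3. The list therefore does not tell the gISC from the gCZSC or the gCPT, and it places the ovISC only slightly above the ovCZSC. Every gISC library was above every ovISC library in ISC-high RNA.

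**Figure D1:**
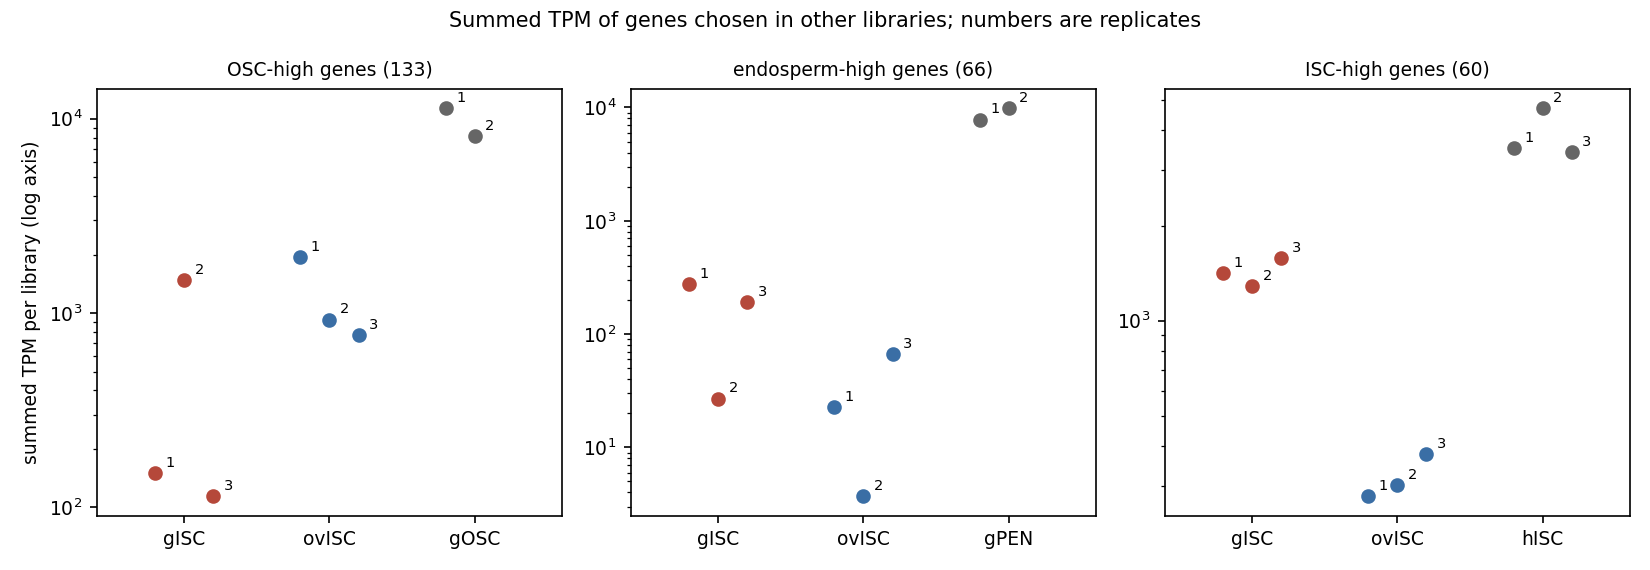
Summed TPM (log axis) of 133 OSC-high, 66 endosperm-high, and 60 ISC-high genes, 1 point per library with its replicate number, in the gISC, the ovISC, and another subregion in which the genes are high (gOSC, gPEN, and hISC, the heart-stage ISC). gISC replicate 2 (1475 TPM) and ovISC replicate 1 (1940 TPM) carry the most OSC-high RNA of their groups, and gISC replicates 1 and 3 (274 and 191 TPM) the most endosperm-high RNA.

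Of 54,858 genes that averaged 1 TPM or more in the gISC or the ovISC, 18,116 differed (33%, limma on log2(TPM + 1), Benjamini-Hochberg adjusted p under 0.05), 4748 of them higher in the gISC (8.66%) and 13,368 lower (24.4%). With a change of at least 1 on the log2 scale in addition, 3849 genes were higher (7.02%) and 10,135 lower (18.5%). The groups did not overlap in 26,324 genes (48%), called or not. Of the called genes, 302 rose by at least 4 on the log2 scale and 208 fell by at least 4.

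The excess of falls depended on how the libraries were scaled. The median change over all genes tested was -0.45 on the log2 scale, and the 50 genes with the highest mean TPM over all 74 libraries held 40.8%, 24.6%, and 39.6% of all TPM in the gISC libraries, against 17.4%, 17.0%, and 22.9% in the ovISC libraries. TPM is a share of the library total, so every value is relative to the rest of its library. Of the called genes 26.2% were higher on the deposited scale, 41.7% after TPM was rescaled without those 50 genes (6713 higher, 10.8% of 62,176 tested, and 9389 lower, 15.1%), 48.4% after quantile normalization (8244 higher, 15% of genes tested, and 8801 lower, 16%), and 51.4% after centring each library on its median (7552 higher, 13.8% of genes tested, and 7151 lower, 13%). No gene called lower was called higher under any of these scalings, and 4739 to 4748 of the 4748 rises and 7151 to 9389 of the 13,368 falls were called in the same direction. Below, falls are therefore read against the shift of -0.45. In such bulk samples fewer cells of a type and less RNA per cell cannot be told apart.

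The 2 most abundant genes in both groups were BnaC09g16500D and BnaC09g30110D, which have no name or GO term in the sources used here. BnaC09g16500D had 65,994, 31,327, and 62,577 TPM in the gISC, against 15,185, 16,633, and 23,834 TPM in the ovISC, and did not pass the test (log2 change 1.48, adjusted p = 0.0514, limma). BnaC09g30110D had 34,654, 16,458, and 32,716 TPM in the gISC, against 8517, 9107, and 13,613 TPM in the ovISC (adjusted p = 0.0541, limma). In both genes the groups did not overlap, but gISC replicate 2 lay far below the other gISC libraries.

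Copies of *CEP1*, a gene of cell death, and of the sugar transporter *SWEET1* were among the 302 called genes that rose by at least 4 on the log2 scale. Both genes are from the study's list, which was chosen on these samples. *CEP1* encodes a cysteine endopeptidase that takes part in programmed cell death of the tapetum in Arabidopsis. Its An copy, BnaA03g23380D, had 542, 780.1, and 580.4 TPM in the gISC, against 0.663, 0.221, and 1.63 TPM in the ovISC (log2 change 8.49, standard error 0.32, adjusted p = 4.28e-06, limma). Its Cn copy, BnaC03g27700D, had 84.0, 117, and 71.0 TPM in the gISC, against 0.263, 0.0638, and 1.40 TPM in the ovISC (log2 change 5.92, adjusted p = 9.27e-06, limma). *CEP1* was close to absent from the ovISC, where 13, 3, and 12 reads fell on the An copy, and each gISC library was far above each ovISC library. Mean levels were higher still at the heart stage, at 3448 TPM for the An copy and 1723 TPM for the Cn copy in the hISC, and low in the mature green ISC at 3.52 and 1.45 TPM.

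*SWEET1*, a sugar transporter that moves monosaccharides across membranes in both directions, has 4 copies in the study's list, and all of them rose. BnaCnng57120D had 198, 208, and 254 TPM in the gISC, against 1.11, 1.04, and 4.01 TPM in the ovISC (log2 change 6.30, standard error 0.35, adjusted p = 8.67e-06, limma). BnaA08g21340D had 82.5, 86.0, and 90.9 TPM in the gISC, against 0.747, 0.0776, and 1.99 TPM in the ovISC (log2 change 5.62). These copies were nearly silent in the ovISC, but BnaA08g21340D was transcribed in the ovule CZSC and OSC, as given below. The other 2 copies were already transcribed in the ovISC. BnaA06g15180D had 413, 614, and 522 TPM in the gISC, against 88.1, 108, and 76.6 TPM in the ovISC (log2 change 2.49, adjusted p = 2.53e-04, limma). BnaC05g16660D had 291, 435, and 382 TPM in the gISC, against 16.5, 19.4, and 35.8 TPM in the ovISC (log2 change 3.95).

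*ASPG1*, an aspartic protease known from Arabidopsis guard cells, rose in both copies. BnaA05g21670D had 289, 382, and 323 TPM in the gISC, against 42.0, 54.7, and 29.1 TPM in the ovISC (log2 change 2.99, adjusted p = 1.23e-04, limma). BnaC05g34710D changed less, with 83.0, 96.3, and 85.5 TPM in the gISC, against 26.4, 30.6, and 21.6 TPM in the ovISC (log2 change 1.72). The An copy thus led in every library of both groups.

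Wall genes moved in both directions, by enzyme. *GXM3*, a methyltransferase that modifies glucuronoxylan, rose in both copies. BnaA09g23510D had 126, 167, and 151 TPM in the gISC, against 1.68, 1.27, and 2.54 TPM in the ovISC (log2 change 5.73, standard error 0.25, adjusted p = 4.28e-06, limma). BnaC06g07780D had 96.0, 165, and 104 TPM in the gISC, against 1.67, 0.210, and 2.71 TPM in the ovISC (log2 change 5.70). *UGE1*, which interconverts UDP-glucose and UDP-galactose for wall polysaccharides, rose as well and was already measured above 10 TPM in every ovISC library. Its Cn copy BnaC08g15730D had 148, 159, and 189.8 TPM in the gISC, against 14.8, 11.3, and 12.1 TPM in the ovISC (log2 change 3.60, adjusted p = 1.67e-05, limma). Its An copy BnaA08g24600D had 93.3, 81.9, and 103 TPM in the gISC, against 10.6, 13.1, and 11.5 TPM in the ovISC (log2 change 2.88). In the ovISC neither *UGE1* copy led in all libraries, while in the gISC the Cn copy was above the An copy in each.

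*XTH9*, a xyloglucan endotransglucosylase of growing walls, fell in all 4 copies. BnaC09g00910D had 5.86, 3.96, and 3.23 TPM in the gISC, against 141, 122, and 75.5 TPM in the ovISC (log2 change -4.39, standard error 0.30, adjusted p = 2.11e-05, limma). BnaA09g01390D had 1.34, 3.44, and 0.685 TPM in the gISC, against 72.2, 53.2, and 57.7 TPM in the ovISC (log2 change -4.57). The other copies, BnaA03g25760D and BnaC03g73080D, changed by -3.45 and -3.48 on the log2 scale. All 4 falls were far past the general shift, and no gISC library reached an ovISC library in any copy.

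*DIM*, a sterol reductase of brassinosteroid synthesis, split between its copies. BnaC05g32840D had 17.6, 34.6, and 12.9 TPM in the gISC, against 161, 209, and 136 TPM in the ovISC (log2 change -2.998, adjusted p = 3.57e-04, limma), and BnaA05g19350D changed by -2.48. BnaC01g33070D had 143, 204, and 141 TPM in the gISC, against 65.9, 83.0, and 40.9 TPM in the ovISC (log2 change 1.38, adjusted p = 0.0098, limma). BnaA01g25880D had 101, 95.9, and 97.7 TPM in the gISC and 68.6, 67.9, and 63.5 TPM in the ovISC and did not pass the test (adjusted p = 0.0876, limma). In every gISC library BnaC01g33070D and BnaA01g25880D were above the other copies, whereas in every ovISC library BnaC05g32840D was the highest.

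Other genes of the study's list changed less. *NFD2* (BnaC05g21090D, nuclear fusion), *DSP4* (BnaC08g23490D, a phosphatase acting on starch), and *WIH2* (BnaC04g47670D) rose by 1.47, 1.59, and 1.29 on the log2 scale in 1 copy each, and their other copies did not pass the test. The *WIH2* call passed in 2 of the 6 fits that left out 1 library. The AWPM-19-like membrane protein pair BnaA10g02700D and BnaC05g02680D rose by 2.20 and 1.57 at low levels, under 10 TPM in every gISC library. *FAB2*, a stearoyl desaturase of fatty acid synthesis, fell in both copies, with log2 changes of -1.87 in BnaA03g20420D and -1.48 in BnaC03g24420D. *RPP0B*, a ribosomal stalk protein, fell in BnaA05g29180D (log2 change -1.71). *CRB*, listed with no description and named CRUCIFERIN B in the paper's text, changed by -2.69 in BnaA06g05390D and by -1.10 in BnaC05g06870D. The second call was lost after quantile normalization and after centring.

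Of the 89 listed genes, 20 rose, 11 fell, 27 did not pass the test, and 31 were below 1 TPM on average in both groups. Since the study chose them on these samples, their count is no independent evidence of a direction.

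**Figure D2:**
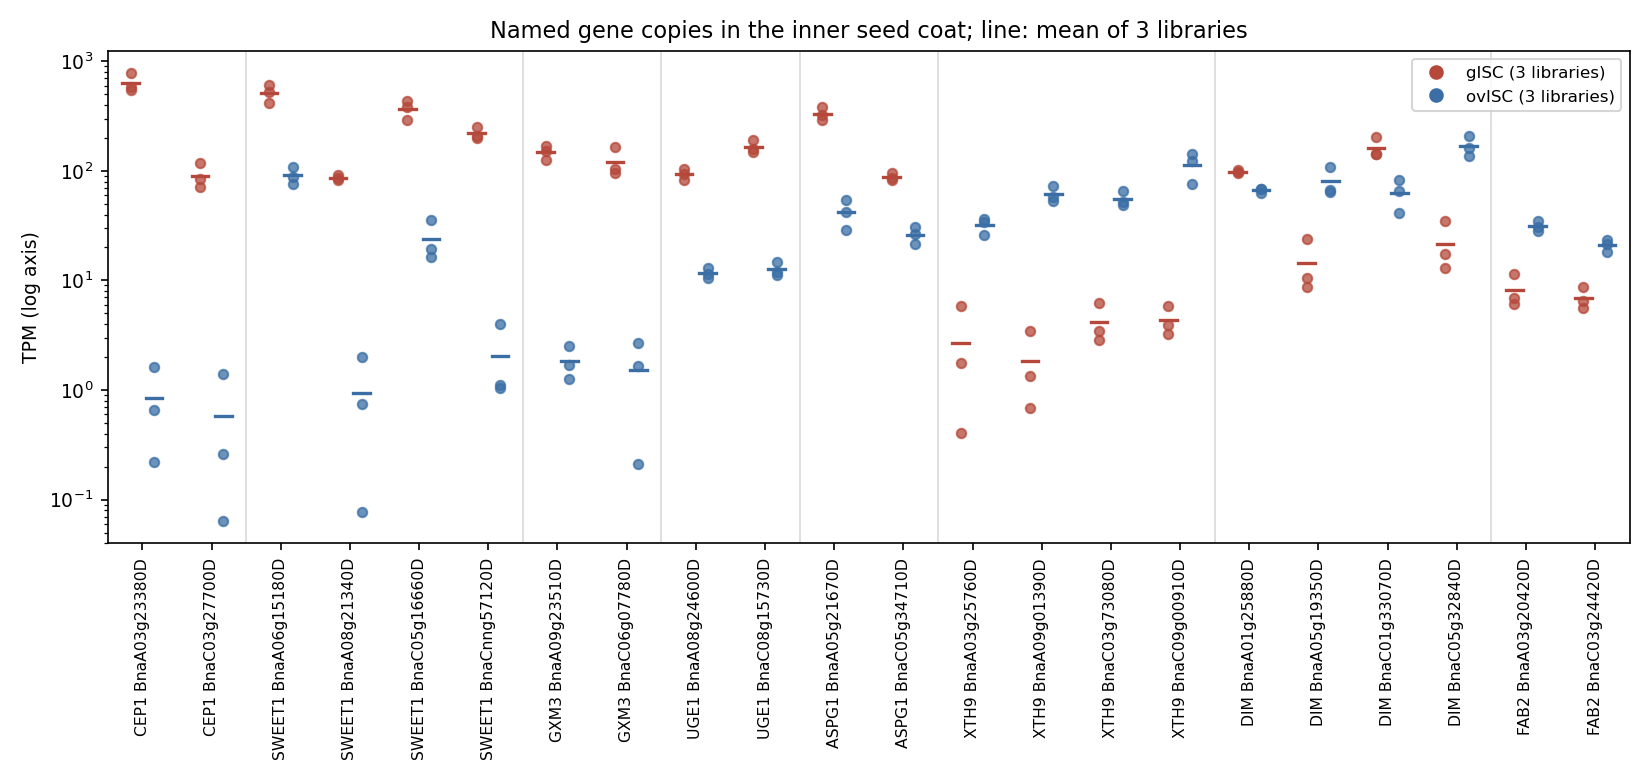
TPM (log axis) of 22 copies of 8 listed genes in 3 gISC (red) and 3 ovISC (blue) libraries, with the mean as a line. *CEP1*, *SWEET1*, *GXM3*, *UGE1*, and *ASPG1* copies lie higher in the gISC in every library, *XTH9* and *FAB2* copies lower, and the *DIM* copies fall on both sides.

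Other listed genes were uneven between libraries of 1 stage. *CUT1*, an enzyme of cuticular wax synthesis, and *GGL19*, *EXL3*, and *GDSL*, of the GDSL lipase family, averaged 35.5 to 828 TPM in the gOSC. Their 8 copies were not called (adjusted p of 0.772 to 0.991, limma). *GGL19* copy BnaC05g36950D had 2.06, 119, and 2.38 TPM in the gISC, against 101, 2.81, and 5.202 TPM in the ovISC and a mean of 828 TPM in the gOSC. It was high in gISC replicate 2 and ovISC replicate 1, the libraries of each group with the most OSC-high RNA, whose part in these values was not tested. *GH9B9*, an endoglucanase with a mean of 769 TPM in the gPEN for BnaC04g03840D, was called higher in the gISC, with 20.2, 2.25, and 17.8 TPM, against 1.71, 0.000703, and 0.783 TPM in the ovISC (log2 change 2.69, adjusted p = 0.014, limma). It was high in gISC replicates 1 and 3, the libraries with the most endosperm-high RNA, and with gISC replicate 2 as the only gISC library the change was 0.94 (adjusted p = 0.479, limma, the lone library assumed to vary like the ovISC). This call passed in 4 of the 6 fits that left out 1 library, and the other copy, BnaA05g04120D (log2 change 1.94), passed in 1 of them. The part of endosperm RNA in these calls was not tested.

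The 10 largest rises held further genes with no annotation here. BnaC05g31880D had 12,034, 11,793, and 13,071 TPM in the gISC, against 14.0, 7.61, and 39.5 TPM in the ovISC (log2 change 9.47, standard error 0.51, adjusted p = 7.81e-06, limma). BnaA05g18870D had 12,516, 12,020.2, and 14,100.0 TPM in the gISC, against 13.0, 9.42, and 40.5 TPM in the ovISC (log2 change 9.46). This An gene and this Cn gene had like values in all 6 libraries, and each alone made up over 1% of the TPM of every gISC library. The others were BnaC03g14230D (log2 change 8.66), BnaA06g40240D (8.31), BnaA09g19380D (7.85), BnaA06g37970D (7.42), BnaA01g19460D (7.34), BnaA03g11410D (7.23), and BnaA02g21420D (7.21), beside *CEP1*. BnaA06g37970D is annotated as a branched-chain amino acid transaminase and had 293, 216, and 387 TPM in the gISC, against 0.360, 0.273, and 1.82 TPM in the ovISC. The homoeologs to hand rose as well, BnaC07g18750D by 6.78 (pair of BnaA06g40240D) and BnaC01g23410D by 5.35 (pair of BnaA01g19460D). BnaC07g18750D was uneven between the gISC libraries, with 66.1, 997, and 75.2 TPM, against 0.567, 0.126, and 1.16 TPM in the ovISC.

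The genes of the 10 largest falls had no annotation in the sources used here. BnaC04g15370D had 0.285, 1.63, and 0.248 TPM in the gISC, against 345, 356, and 222 TPM in the ovISC (log2 change -7.54, standard error 0.34, adjusted p = 4.28e-06, limma). BnaA06g13830D had 1.32, 0.396, and 0.288 TPM in the gISC, against 172, 264, and 212 TPM in the ovISC (log2 change -7.05). Each was close to silent in the globular ISC. The other 8 changed by -7.20 (BnaA02g26670D), -7.04 (BnaA03g55560D), -6.77 (BnaC03g02850D), -6.50 (BnaA10g23500D), -6.38 (BnaAnng37270D), -6.38 (BnaA02g02560D), -6.37 (BnaC06g31870D), and -6.27 (BnaC02g47920D).

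Later ISC stages are given as means. The 10 genes with the largest rises were in the heart-stage ISC at between 168 TPM (BnaA06g37970D) and 26,506 TPM (BnaA05g18870D), and in the mature green ISC at 0.648 TPM (BnaA01g19460D) to 24.9 TPM (BnaA02g21420D). BnaA06g40240D stood at a mean of 23,604 TPM in the hISC. Of the genes that fell most, BnaAnng37270D was at 105 TPM and BnaC04g15370D at 36.3 TPM in the mature green ISC, where 2 libraries exist. These levels are descriptions and were not tested.

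**Figure D3:**
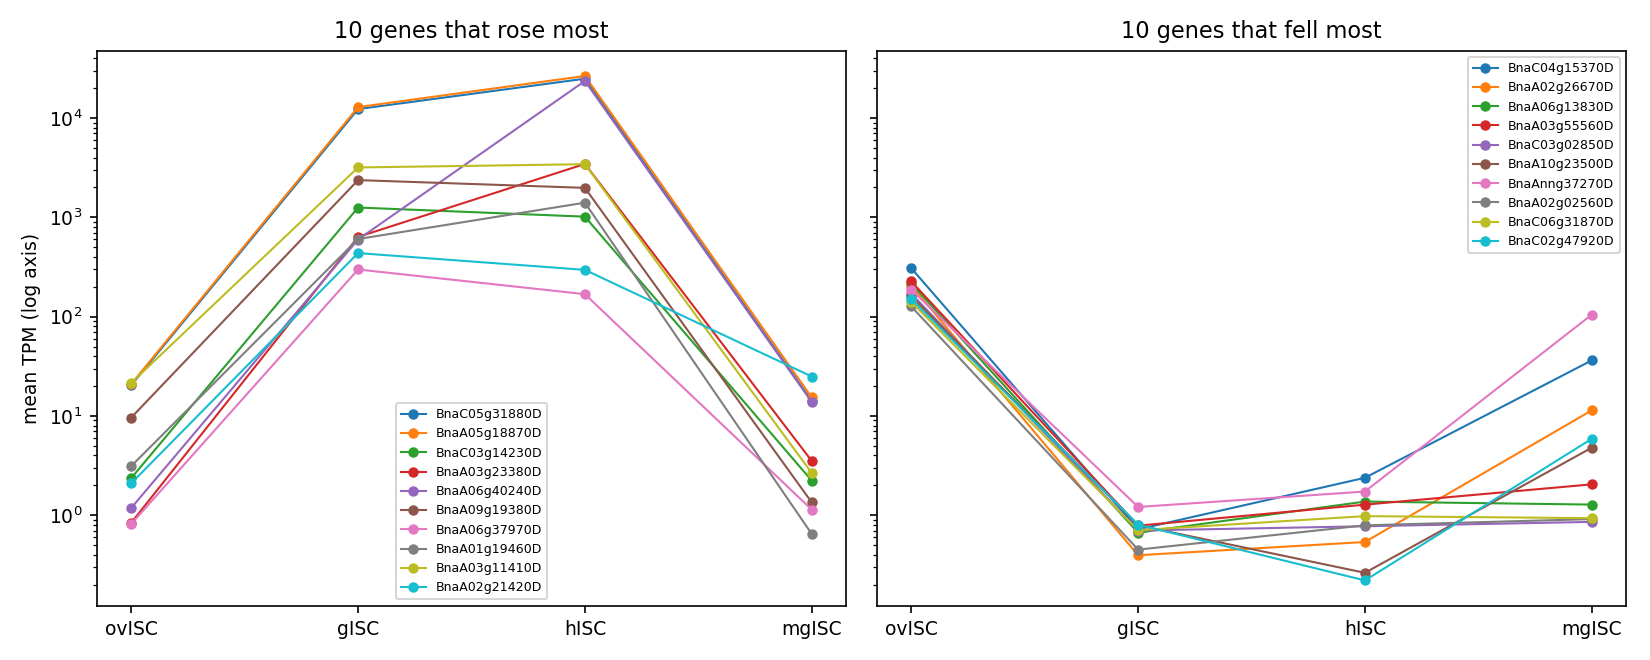
Mean TPM (log axis) of the 10 genes with the largest rises and the 10 with the largest falls, in the ISC of ovule (ovISC), globular (gISC), heart (hISC), and mature green (mgISC) seeds, 3 libraries per stage except 2 in the mgISC. The genes that rose stay high in the hISC and are at 24.9 TPM or less in the mgISC.

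Cell proliferation genes fell as groups. Of 119 tested genes with GO terms of cell division, 70 fell and 4 rose, with a median log2 change of -1.12. Of 24 genes of DNA replication and histones, all tested, 20 fell and none rose, with a median of -2.01. Among all tested genes 24.4% fell and 8.66% rose with a median of -0.45, and among the 5255 tested genes with a GO term to hand 30.6% fell and 9.55% rose. BnaC09g07360D, annotated for mitotic nuclear division and microtubule binding, had 0.132, 1.44, and 0.172 TPM in the gISC, against 27.9, 27.1, and 21.5 TPM in the ovISC (log2 change -4.15, adjusted p = 3.29e-05, limma). BnaC06g37050D, annotated as a regulator of cyclin-dependent kinase activity, had 0.209, 1.20, and 0.0459 TPM in the gISC, against 25.8, 32.6, and 14.99 TPM in the ovISC (log2 change -4.11). BnaA05g11560D, annotated for DNA replication and the cell cycle, had 0.181, 2.99, and 0.985 TPM in the gISC, against 28.8, 28.6, and 23.1 TPM in the ovISC (log2 change -3.72). In these genes gISC replicate 2, with the most OSC-high RNA, was the highest of the gISC, and every gISC library was far below every ovISC library. The part of OSC RNA in these values was not tested. After centring, 51 of the cell division genes and 17 of the replication genes still fell, and without gISC replicate 2 and ovISC replicate 1 together 59 and 20 fell.

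Genes of the ribosome and of photosynthesis fell too. Of 29 tested ribosome genes, 21 fell (72.4%) and 2 rose, with a median log2 change of -1.34. Of 54 photosynthesis genes, 32 fell (59.3%) and 3 rose, with a median of -1.27. Over tested genes with a GO term 30.6% fell and 9.55% rose. BnaA08g04420D, annotated to photosystem II and its light-harvesting complex, had 4.79, 5.18, and 4.26 TPM in the gISC, against 97.8, 123, and 97.3 TPM in the ovISC (log2 change -4.21, adjusted p = 7.18e-06, limma). BnaC06g15470D, annotated for light harvesting in photosystem I, had 3.37, 5.59, and 4.68 TPM in the gISC, against 82.0, 124, and 76.4 TPM in the ovISC (log2 change -4.09). Each gISC library was more than 10 times below each ovISC library in both genes. After centring, 16 ribosome and 27 photosynthesis genes still fell. The 2 risers of the ribosome list, BnaC02g17140D and BnaA02g12810D, are annotated as parts of the carbon-fixing enzyme ribulose bisphosphate carboxylase. BnaC02g17140D had 25.7, 2.65, and 20.6 TPM in the gISC, against 1.94, 0.00112, and 1.66 TPM in the ovISC and 828 TPM in the gPEN. It was high in the same gISC libraries as the endosperm-high genes, its call passed in 3 of the 6 fits that left out 1 library, and its change was 0.88 (adjusted p = 0.508, limma) with gISC replicate 2 as the only gISC library.

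Starch and protease genes had more rises than falls. Of 17 tested starch genes, 6 rose (35.3%) and none fell, with a median log2 change of 0.32. Over tested genes with a GO term 9.55% rose and 30.6% fell, with a median of -0.48. BnaA07g04740D, annotated as a subunit of the ADP-glucose-forming enzyme of starch synthesis, had 157, 122, and 164 TPM in the gISC, against 40.4, 51.1, and 26.2 TPM in the ovISC (log2 change 1.93, adjusted p = 0.00138, limma). BnaC08g49610D, annotated for starch breakdown, had 25.3, 13.9, and 29.3 TPM in the gISC, against 3.34, 4.78, and 3.82 TPM in the ovISC (log2 change 2.21). Genes of both synthesis and breakdown of starch were thus among the 6. Of 26 protease and cell death genes, 8 rose (30.8%) and 4 fell (15.4%), with a median log2 change of -0.009, so the list as a whole did not rise. Its rises were led by both *CEP1* copies and by BnaA01g30370D, an aspartic endopeptidase. BnaA01g30370D had 24.8, 24.6, and 29.2 TPM in the gISC, against 2.32, 0.713, and 2.23 TPM in the ovISC. Sugar transport genes were mixed, with 3 rises (14.3%), 2 of them *SWEET1* copies, and 2 falls (9.5%) among 21.

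Wall genes of the GO lists did not share a direction. Of 34 genes of wall organization and loosening, 6 rose and 6 fell (17.6% each), with a median log2 change of -0.43. Among tested genes with a GO term 9.55% rose and 30.6% fell. The peroxidase gene BnaA01g11800D had 2001, 2822, and 1973 TPM in the gISC, against 477, 403, and 236 TPM in the ovISC (log2 change 2.64), and its homoeolog BnaC01g13370D changed by 2.602. BnaA04g16780D, annotated for wall loosening in cell growth, had 0.649, 0.519, and 0.189 TPM in the gISC, against 17.3, 12.9, and 6.71 TPM in the ovISC (log2 change -3.12). Of 8 pectin genes 2 rose and none fell, among them BnaA01g20900D (log2 change 0.99), and of 20 secondary wall genes 1 rose, BnaA03g55200D (log2 change 0.97), a call that was lost in 5 of the 6 fits that left out 1 library. Lipid transport, cutin, and wax genes gave 6 falls (37.5%) and no rise among 16, and 2 falls after centring. This share of falls was near the 30.6% of tested genes with a GO term. The falls were led by BnaC03g50130D with 7.08, 31.4, and 8.03 TPM in the gISC, against 167, 162, and 100.1 TPM in the ovISC.

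Flavonoid genes were called in both directions, with 4 rises and 4 falls among 17 (23.5% each). Among tested genes with a GO term 9.55% rose and 30.6% fell. BnaC09g08170D, annotated for flavonoid synthesis, had 0.922, 2.21, and 1.21 TPM in the gISC, against 70.7, 70.8, and 44.8 TPM in the ovISC (log2 change -4.69, adjusted p = 1.20e-05, limma). The rises were led by BnaCnng39460D and BnaA02g26660D, which carry a ribonuclease annotation beside that of anthocyanin compounds. BnaCnng39460D had 51.3, 49.7, and 54.9 TPM in the gISC, against 0.276, 0.298, and 1.47 TPM in the ovISC (log2 change 5.05).

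Hormone lists held strong single changes. Of 96 tested genes of abscisic acid, 17 rose (17.7%) and 36 fell (37.5%), against 9.55% and 30.6% of tested genes with a GO term. After centring 20 rose and 17 fell. The transcription factor gene BnaC04g00750D, annotated to abscisic acid signalling and water deprivation, had 144, 196, and 159.8 TPM in the gISC, against 1.69, 0.487, and 0.542 TPM in the ovISC (log2 change 6.50, adjusted p = 4.28e-06, limma), and BnaA05g01190D, with the same terms, rose by 5.88. BnaA10g02720D, an aldehyde oxidase annotated to abscisic acid and auxin synthesis, rose by 4.08. Of 12 brassinosteroid genes 2 rose and 1 fell. BnaA05g34410D, a brassinosteroid signalling gene, had 128, 152, and 138 TPM in the gISC, against 1.90, 0.173, and 0.00316 TPM in the ovISC (log2 change 6.54), and BnaC04g52930D, with the same terms, rose by 5.62.

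Of 60 auxin genes 6 rose (10%) and 19 fell (31.7%), with 13 falls after centring, near the shares of all tested genes with a GO term (9.55% and 30.6%). Among them, BnaC07g45220D, annotated to the auxin response, changed by -3.21 and BnaCnng16590D, a calcium-binding protein, by 3.07. Of 22 cytokinin genes 2 rose and 5 fell. The response regulator BnaC04g47580D changed by 2.92 and the histidine phosphotransfer genes BnaC07g25790D and BnaA06g30870D by -1.81 and -1.61. Of 26 gibberellin genes 1 rose, BnaA05g09520D (log2 change 1.63), and 6 fell. The shares for gibberellin and cytokinin lay near those of all genes tested.

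Regulators of the seed coat itself were divided. Of 18 tested genes annotated to seed coat and ovule development, 6 rose (33.3%) and 7 fell (38.9%). Among tested genes with a GO term 9.55% rose and 30.6% fell. BnaA08g26320D, a transcription factor gene annotated to seed coat development and the auxin response, had 126, 110.0, and 149 TPM in the gISC, against 14.1, 14.2, and 13.2 TPM in the ovISC (log2 change 3.12, adjusted p = 2.72e-05, limma). BnaA06g02470D, a protein kinase annotated to integument development and to restraint of cell division, had 0.684, 3.39, and 0.597 TPM in the gISC, against 27.1, 33.9, and 19.04 TPM in the ovISC (log2 change -3.57), and BnaC06g04410D, with the same terms, changed by -2.73. Of 4 Polycomb and chromatin silencing genes 3 fell, and none after centring. Of 9 heat response genes 1 fell, BnaC03g13470D (log2 change -0.86), a call that all 3 other scalings removed.

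**Figure D4:**
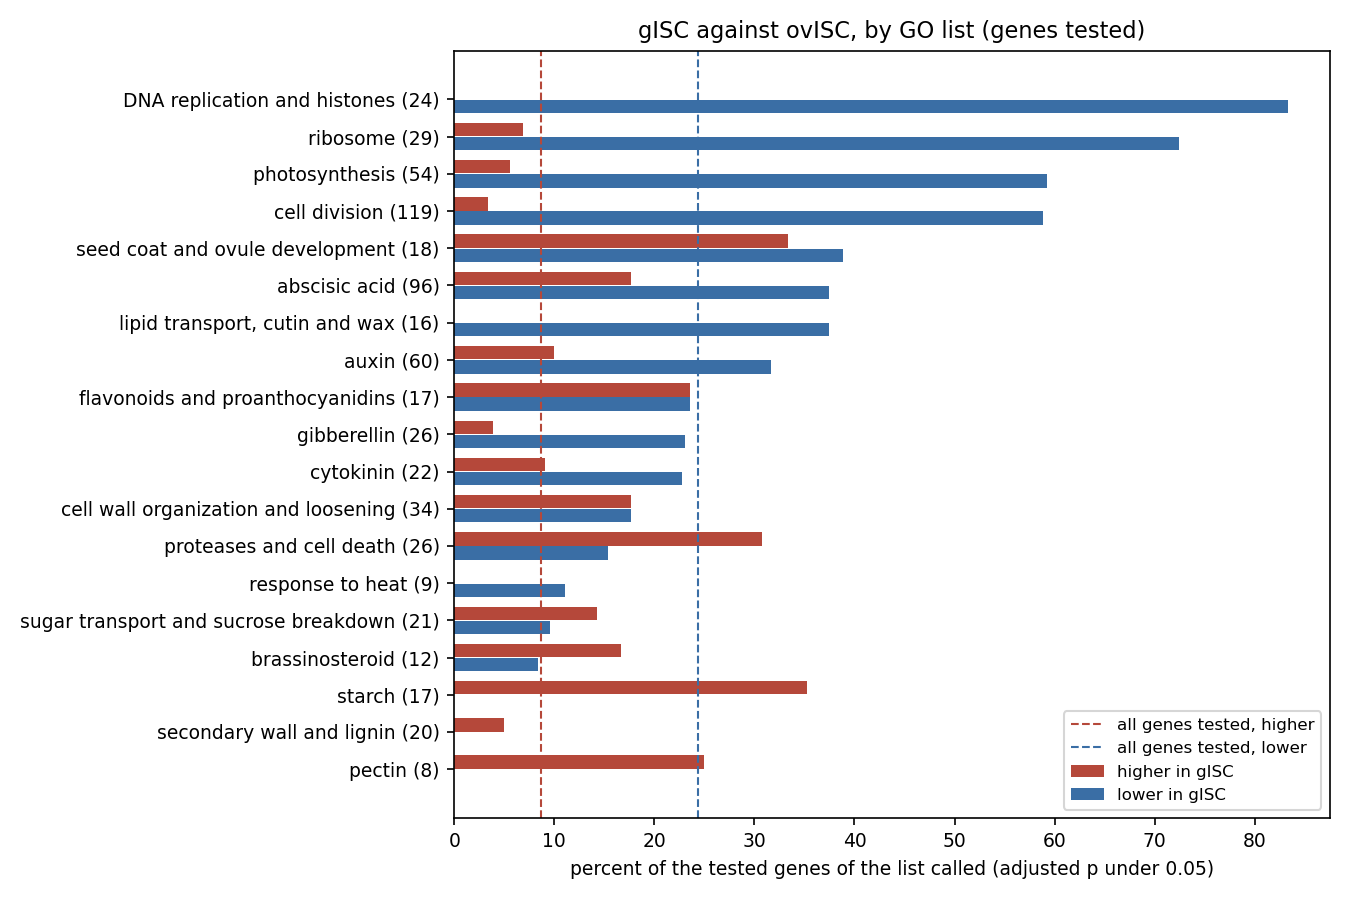
Percent of the tested genes of each GO list with at least 8 genes tested (number in brackets) called higher (red) or lower (blue) in the gISC than in the ovISC, with the same shares over all 54,858 genes as dashed lines (8.66% and 24.4%). DNA replication (83.3%), ribosome (72.4%), photosynthesis (59.3%), and cell division (58.8%) have the highest shares of falls among the lists drawn, and starch (35.3%) and seed coat development (33.3%) the highest shares of rises.

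Homoeologs were often called alike. Of 2599 homoeologous pairs to hand with both copies tested, both copies were called in the same direction in 767 pairs (598 down, 169 up), 1 copy alone in 548, and neither in 1283. In 1 pair the copies were called in opposite directions, and it is named here because of that. BnaA07g33630D had 80.4, 81.5, and 93.6 TPM in the gISC, against 12.6, 9.89, and 12.8 TPM in the ovISC (log2 change 2.76). Its partner BnaC06g38240D had 2.39, 2.12, and 0.627 TPM in the gISC, against 4.34, 6.88, and 4.70 TPM in the ovISC (log2 change -1.27). Over all genes, 9.12% of An and 8.27% of Cn genes tested rose and 26.03% and 23.03% fell. Cn genes held 66.0%, 59.0%, and 64.3% of the An and Cn TPM in the gISC, against 58.5%, 58.1%, and 62.4% in the ovISC (exact two-sided permutation test, p = 0.2, n = 3 each). Without the 50 most abundant genes the Cn share was 50.9% to 51.9% in the gISC and 52.5% to 55.4% in the ovISC, so that the sign of the difference turned round.

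The ISC was then set against the neighbouring seed coat. The change of the ISC differed from that of the CZSC in 8668 of 69,600 genes (12.5%, limma interaction, adjusted p under 0.05), more positive in the ISC for 6442 (9.26%) and more negative for 2226 (3.2%). This excess of positive differences shrank with the scaling, to 4989 against 4137 after quantile normalization and 4800 against 3113 without the 50 most abundant genes. It differed from that of the OSC in 5217 genes (7.5%), more positive for 2806 (4.03%) and more negative for 2411 (3.46%), and after quantile normalization 3009 were more positive and 3150 more negative. The OSC count was 8499 without ovISC replicate 3. The CZSC change was fitted on 3 libraries per stage and the OSC change on 2 gOSC and 3 ovOSC libraries.

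The rise of *SWEET1* differed from both neighbouring tissues, where its estimated changes were negative. BnaA08g21340D changed by 5.62 in the ISC, -4.30 in the CZSC, and -3.92 in the OSC on the log2 scale, and its ISC change was more positive than that of the CZSC by 9.92 and of the OSC by 9.54 (adjusted p = 1.55e-09 and 1.45e-08, limma). Its mean level was 0.215 TPM in the gCZSC and 22.4 TPM in the ovCZSC, and 3.19 TPM in the gOSC and 61.6 TPM in the ovOSC. The other 3 copies changed by -1.84 to -3.87 in the CZSC and by -2.15 to -3.03 in the OSC, and all their differences passed the test. At the globular stage each *SWEET1* copy was above 80 TPM in every gISC library and was at 4.70 TPM or less on average in the gOSC and gCZSC.

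*GXM3* differed likewise from the CZSC. BnaC06g07780D changed by 5.70 in the ISC and -3.03 in the CZSC, and by 1.17 in the OSC (difference from the CZSC 8.73, adjusted p = 2.13e-08, limma). The *CEP1* copy BnaA03g23380D differed from the CZSC by 8.68 and from the OSC by 7.45. Its high level was not particular to the ISC, with a mean of 363 TPM (309 to 413) in the gCPT, against 634 TPM in the gISC. The gCPT was not part of this fit. *UGE1* differed less. BnaA08g24600D changed by 2.88 in the ISC, 2.09 in the CZSC, and 2.08 in the OSC, and neither difference passed the test (adjusted p = 0.341 and 0.381, limma), which does not show that they are equal. BnaC08g15730D differed from the CZSC by 1.63 (adjusted p = 0.00799, limma). The *XTH9* change was negative in all 3, and less so in the ISC than in the CZSC for all 4 copies, by 1.89 to 3.99 on the log2 scale (adjusted p of 2.26e-06 to 0.00897, limma).

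**Figure D5:**
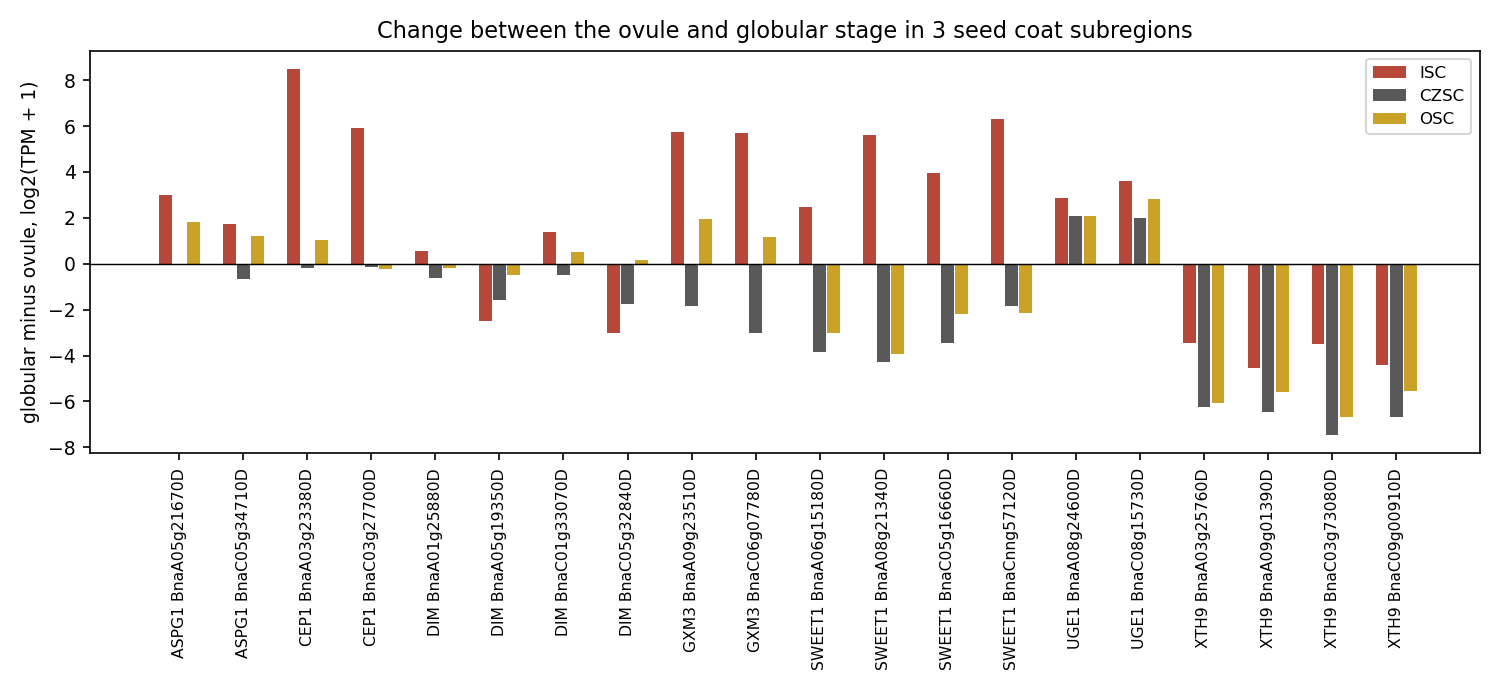
Globular minus ovule change on the log2(TPM + 1) scale of 20 copies of 7 listed genes in the ISC (red), CZSC (grey), and OSC (yellow). *SWEET1* copies lie above 0 in the ISC and below 0 in the CZSC and OSC, *CEP1* copies are at 8.49 and 5.92 in the ISC, and *XTH9* copies lie below 0 in all 3.

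The same test was counted over GO lists. Of 133 cell division genes in that fit, 11 differed in the positive and 4 in the negative direction from the CZSC change, with a median difference of 0.06. These counts are near the shares over all genes (9.26% and 3.2%) and give no result about cell division genes. Against the OSC change 4 were more positive and 19 more negative (4.03% and 3.46% over all genes), with a median of -0.32. Of 56 photosynthesis genes, 2 were more positive and 16 more negative than in the CZSC, and none and 19 than in the OSC, with medians of -0.50 and -0.995. Of 17 starch genes 4 were more positive than in the CZSC, and none differed from the OSC.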

How the data were processed

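The deposited values were TPM. To make them, the authors used fastp for trimming, HISAT2 for alignment (Darmor-bzh genome), and featureCounts for reads with a unique position, so near-identical copies may share or lose reads. Tool versions are not given in the sources used here. The table holds 101,040 genes in 74 libraries and no 0, since a constant of 0.01 reads sits under each value. From the steps between low values, reads were recovered for 100,123 genes (99.1%), and all values under 100 reads came out whole within 0.02. They are lower limits of depth, since the recovered genes hold 52.0% to 66.6% of the TPM.

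The 3 gISC and 3 ovISC libraries were compared with limma 3.58.1 (R 4.3.3, trend in the variance) on log2(TPM + 1). Genes that averaged 1 TPM or more in the gISC or the ovISC were tested. Fold changes on this scale understate the change of low genes. Benjamini-Hochberg adjustment of two-sided p-values ran over all genes tested (limit 0.05). Interactions were fitted over 17 ISC, CZSC, and OSC libraries. Calls were tested on simulated data. Single values per library were compared with exact permutation tests (scipy 1.17.1).

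Named genes were the 10 that rose and the 10 that fell most among called genes whose groups did not overlap and which averaged 10 TPM or more in the higher group, their homoeologs, the 89 genes of the study's list, up to 3 called genes per GO list that averaged 10 TPM or more in the higher group, the 2 most abundant genes, and the 5 largest interactions in each direction against the CZSC and the OSC among called genes. Genes of the study's list that were not called are given mainly as counts. The 20 GO lists rest on those parts of the study's enrichment tables used here, which the authors built from clusters of these data. Members, lists, and rules were chosen with earlier results of these data known. Alternatives were other pseudocounts, filters, and scalings, a fit over all 74 libraries, a replicate block, and fits without single libraries. Median-centring and the fits without 2 libraries together were chosen after seeing the data. Replicate numbers did not pair the samples.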

Additional observations from a re-analysis of the deposited data

Results flagged for a closer look

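The changes below differed between the ISC and another seed coat subregion by the test of the difference itself (limma interaction, adjusted p under 0.05). Values are the ISC change minus the other change on the log2(TPM + 1) scale, and groups of 3 libraries were not searched for outlying libraries. The *SWEET1* copies rose in the ISC and had negative estimated changes in both other tissues, with differences from the CZSC of 9.92 (BnaA08g21340D), 8.14 (BnaCnng57120D), 7.42 (BnaC05g16660D), and 6.35 (BnaA06g15180D), and from the OSC of 9.54, 8.46, 6.15, and 5.52 in the same order. *GXM3* rose in the ISC and had negative estimated changes in the CZSC, with differences of 8.73 (BnaC06g07780D) and 7.59 (BnaA09g23510D). The *ASPG1* copy BnaC05g34710D rose in the ISC and had an estimated change of -0.68 in the CZSC, with a difference of 2.40.

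The 5 differences from the CZSC of greatest size in the positive direction also held BnaA01g00410D (8.97), *CEP1* BnaA03g23380D (8.68), and BnaC03g14230D (8.47). Those in the negative direction were BnaA03g42590D (-6.99), BnaC01g37520D (-6.15), BnaC02g08510D (-5.84), BnaC07g33690D (-5.78), and BnaC03g17110D (-5.65). Against the OSC, the positive ones also held BnaC04g29170D (10.25), BnaC03g14230D (9.74), and BnaA01g25630D (9.55), and the negative ones were BnaC07g12800D (-7.03), BnaA03g05320D (-6.69), BnaAnng29170D (-6.39), BnaA04g25440D (-6.31), and BnaC04g49330D (-6.09).

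BnaC04g29170D had 170.4, 761, and 152 TPM in gISC replicates 1 to 3, against 2.89, 2.47, and 4.04 TPM in the ovISC, and a mean of 0.521 TPM in the gOSC and 37.4 TPM in the ovOSC. Its level in gISC replicate 2 stood apart from the other gISC libraries, and the reason was not tested.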

How the results depend on the processing

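Of 107 named genes called, 91 kept their call and direction in every alternative other than the fit with gISC replicate 2 as the only gISC library, and none reversed in any. That fit (1 against 3 libraries, the lone library assumed to vary like the ovISC) called 5958 genes, 2300 higher and 3658 lower. Quantile normalization gave 8244 higher and 8801 lower, median-centring 7552 higher and 7151 lower, and quantile normalization gave 4989 genes more positive and 4137 more negative in the ISC than in the CZSC. Without the 50 most abundant genes, the Cn share of the gISC minus that of the ovISC was -2.14 percentage points, against 3.39 with them. Without gISC replicate 2 and ovISC replicate 1 together, 14,803 genes were called. Many of the 107 named genes were picked by their call or size of change in these same libraries. The 91 kept are therefore no rate for all called genes. After centring, 4748 of all 4748 rises and 7151 of all 13,368 falls were still called.

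Leaving out 1 library at a time, 12,580 to 18,845 genes were called (3635 to 4595 higher, 8945 to 14,407 lower), 6694 to 9727 in the CZSC interaction (4858 to 7267 more positive, 1735 to 2460 more negative), 4117 to 8499 in the OSC interaction (1872 to 5578 and 1783 to 3527), and 99 to 111 of the named genes. Genes above 1 TPM differed by -18,139 to -1548 (gISC minus ovISC), the Cn share by 1.95 to 5.45 percentage points, endosperm-high TPM by 77.9 to 201.6, and OSC-high TPM by -1080 to -268.

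With the replicate number as a block, 17,437 genes were called, and 8272 and 4630 in the CZSC and OSC interactions. Deviations of same-numbered libraries correlated with r of -0.17, 0.06, and 0.06, so the numbers gave no sign of pairing. Few reads limit low values: on a gene of median length 1 read was worth 0.0729 to 0.167 TPM in the gISC and 0.0539 to 0.144 TPM in the ovISC, which covers counting error only.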

Other observations

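Single GO terms were ranked after their values were seen, among terms with at least 10 tested genes, and none was tested as a set. Their counts stand against 24.4% of all tested genes that fell and 8.66% that rose. Over tested genes with a GO term these shares were 30.6% and 9.55%. The highest shares of falls were in the cytosolic small ribosomal subunit (9 of 10 genes, median log2 change -1.46) and the plastoglobule, the lipid droplet of plastids (17 of 19, median -2.78). The term cell proliferation had 14 falls and no rise among 18 genes, and the kinesin complex, motors that move along microtubules, 14 falls and 2 rises among 19. After centring, 14 of the plastoglobule genes and 10 of the kinesin genes still fell, against 13% of all genes tested.

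Among the terms with the highest shares of rises were transmembrane transport (7 of 10 genes, median log2 change 1.45), 2-oxoglutarate-dependent oxidoreductases (11 of 21, median 1.09), the response to wounding (9 of 22), and amino acid transmembrane transporters (4 of 10, with no fall). Vacuole genes had 11 rises (37.9%) and 3 falls (10.3%) among 29, against 9.55% and 30.6% of tested genes with a GO term. After centring, 13 of the 21 oxidoreductase genes and 13 of the 29 vacuole genes rose, against 13.8% of all genes tested. The terms overlap in their genes.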
